A study of Homo sapiens with 12 samples.

Results

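The spliceosome and hnRNP genes are the subject here: 85 of the 20307 genes in the deposited table. They were chosen by symbol alone, as every gene named SRSF, HNRNP, SNRP, LSM, SF3A, SF3B, PRPF or U2AF with its number or letter. No measured value is part of this rule, although it was set with earlier results of these data known. By name they form 6 classes: 12 SRSF genes (the SR proteins), 26 HNRNP genes, 12 SNRP genes, 11 LSM genes, 11 SF3A, SF3B and U2AF genes, and 13 PRPF genes. All 85 identifiers were found in GENCODE 29, where 1 of them, HNRNPA1L3, is named HNRNPA1P48. The label fits what these genes are known to encode, although not every LSM and SNRP gene makes a protein of the major spliceosome: LSM1, LSM10, LSM11 and LSM12 act elsewhere.

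RNA was sequenced from 12 libraries in 4 groups of 3. Of these, 2 groups are H1299, an established non-small-cell lung carcinoma line, with the genotype given as WT or as DCBLD2 overexpression. The other 2 groups are THP-1, an established monocytic leukaemia line with the genotype WT, which turns macrophage-like under the phorbol ester PMA. Both THP-1 groups had PMA for 24 h, and then 48 h of exposure to WT H1299 in one group and to DCBLD2 H1299 in the other. The sample labels name H1299 supernatant where the design text names co-culture, and no empty-vector control, promoter or clone number is given for the overexpressing line. No source says that replicates were separate cultures, so the p-values measure the spread between these libraries only, which may be technical.

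Splicing removes introns from pre-mRNA. The U1, U2, U4/U6 and U5 particles each hold a small nuclear RNA on a ring of Sm proteins (SNRPB, D1, D2, D3, E, F and G), or of LSm proteins 2 to 8 for U6. SF3A, SF3B and U2AF proteins fix the U2 particle to the branch point and 3' splice site, and most PRPF proteins build and activate the U4/U6.U5 tri-snRNP. SR proteins mainly promote the use of an exon, whereas hnRNP proteins coat nascent RNA and often repress exons, and many of both families tune their own mRNA through poison exons, which counts per gene do not separate.

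DCBLD2 checks the labels and went against them in H1299. In TPM, a level scaled for transcript length and library depth, it stood at 247, 148 and 196 in the labelled control libraries and at 105, 98.2 and 92.5 in those labelled as overexpressing. The log2 fold change was -1.27 ± 0.17 (SE, adjusted p = 0.00284), so each group is named "labelled control" or "labelled DCBLD2" below, and every direction is labelled DCBLD2 against labelled control. DCBLD2 was also lower in THP-1, at 6.27 to 6.61 TPM with labelled DCBLD2 H1299 against 11.4 to 12.2 TPM. Depth, as the sum of estimated counts, ran from 14578887 to 23388187 per H1299 library and from 18606739 to 26787853 per THP-1 library. Carcinoma-cell markers were near 0 in THP-1 for KRT8 and KRT18 (0.28 to 0.52 and 0.20 to 1.01 mean TPM, against 539 and 1379 in labelled control H1299), while CAV1 and NT5E were carried by both lines (146 and 190 mean TPM in THP-1 with labelled control). Of 16 myeloid markers only CD68 exceeded 5 TPM in H1299. Biological variation between replicates, as the common coefficient fitted by edgeR, was 13.3% in H1299 and 1.96% in THP-1, so much smaller differences passed the test in THP-1.

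Promoter sequence was available for 73 of the 85 genes in the RefSeq table (GRCh38.p14), as the 250 bases before and 50 after the first listed start of each gene. In all, 7 motifs were searched on both strands. The windows of all genes, given beside the members, were not matched to them by expression or gene type. The ETS motif CCGGAAGT was present in 15 of the 73 windows (20.5%), against 4.44% of all 27305 windows, and 7 of the 15 belong to the SF3A, SF3B and U2AF class (SF3A1, SF3A2, SF3A3, SF3B2, SF3B4, SF3B6 and U2AF2). The E-box CACGTG was present in 8 (11.0%, against 7.43% of all), 7 of them hnRNP genes and the other SF3B1. The NRF1 core GCGCATGCG was found in 3 (4.11% against 2.10%), the YY1 motif AAGATGGCG in 4 (5.48% against 1.85%), the E2F letters TTTGGCGC in 1 (1.37% against 0.659%), and the CRE TGACGTCA and the E2F letters TTTCGCGC in none (1.98% and 0.546% of all). Windows that hold these letters belong to members that rose and to members that fell in THP-1, and 4 are printed to show this: SF3B6 and HNRNPH2 were higher there with labelled DCBLD2, and SNRPA1 and SF3B1 were lower. Each stretch is on the gene's strand, 5' to 3', and stops before any exon that GENCODE gives to a protein-coding gene. Capitals mark the motif: the ETS letters in SF3B6, their reverse complement in SNRPA1, the E-box at a pair of places in HNRNPH2, and an E-box followed by TTTGGCGC in SF3B1. A match is a description of the letters and not a shown binding site.
SF3B6 (chr2:24076444-24076525, minus strand): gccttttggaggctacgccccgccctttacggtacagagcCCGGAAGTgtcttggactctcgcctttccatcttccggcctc
HNRNPH2 (chrX:101408013-101408221, plus strand): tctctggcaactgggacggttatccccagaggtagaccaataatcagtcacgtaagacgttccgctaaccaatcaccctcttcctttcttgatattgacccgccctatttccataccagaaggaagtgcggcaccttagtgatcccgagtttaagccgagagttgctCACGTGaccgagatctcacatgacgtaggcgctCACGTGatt
SNRPA1 (chr15:101295283-101295498, minus strand): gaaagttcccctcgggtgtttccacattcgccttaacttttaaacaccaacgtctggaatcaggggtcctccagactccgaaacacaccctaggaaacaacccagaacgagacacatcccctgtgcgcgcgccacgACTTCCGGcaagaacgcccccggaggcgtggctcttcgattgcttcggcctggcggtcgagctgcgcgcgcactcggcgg
SF3B1 (chr2:197435092-197435278, minus strand): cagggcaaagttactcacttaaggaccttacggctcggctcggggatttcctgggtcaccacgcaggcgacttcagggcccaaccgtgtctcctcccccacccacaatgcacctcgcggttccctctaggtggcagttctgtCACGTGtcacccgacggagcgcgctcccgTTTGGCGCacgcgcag

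Most splicing genes were carried at a lower level by THP-1 than by H1299, and 1 core gene, SNRPN, was abundant in THP-1 and near 0 in H1299. Between the labelled control groups, 71 of 81 members tested passed an adjusted p under 0.05 (edgeR quasi-likelihood test), 60 lower in THP-1 and 11 higher. Over all genes 84.8% were called, 43.1% lower and 41.7% higher. At 1.5-fold or more 43 members were lower and 8 higher (53.1% and 9.88%), against 35.9% and 35.3% of all genes, and in 74 members (91.4%) the TPM groups did not overlap, against 85.6%. The members' median log2 fold change was -0.62 beside -0.03 for all genes tested, and with limma on log2(TPM + 1), which moves the median of all genes to -0.26, the members stood at -0.87. These libraries are the same ones that serve as controls in both comparisons below. They also differ in growth state: 15 cell cycle genes summed to 2501 to 3106 TPM in labelled control H1299 and to 242 to 255 TPM in THP-1, and the part of this in the members' levels was not tested.

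Among the ring genes all 14 were called lower in THP-1 on counts, with a median log2 fold change of -1.77 for the 7 Sm genes and -0.74 for LSM2 to LSM8. LSM8 is an exception in TPM, at 13.9, 12.1 and 15.1 in H1299 and 9.16, 13.5 and 30.9 in THP-1, where the groups overlap and the mean is higher in THP-1. SNRPD2, an Sm ring protein, held 1255, 1485 and 1261 TPM in H1299 and 196, 201 and 201 in THP-1 (log2 fold change -2.48 ± 0.11, adjusted p = 3.85e-08). SNRPF, another ring subunit, held 247, 310 and 297 TPM against 41.0, 36.4 and 35.6 (-2.64 ± 0.13, adjusted p = 1.15e-07). Both sets of values are far apart. SNRPA1, the U2 A' protein, stood at 69.5, 72.6 and 81.2 against 64.4, 64.1 and 60.8 TPM, close but without overlap, and did not pass on its counts (0.02 ± 0.09, adjusted p = 0.852). SNRPN (chr15:24823637-24978723, plus strand) encodes SmN, an imprinted relative of SNRPB that is known from neurons and can take its place in the ring. It stood at 144, 146 and 141 TPM in THP-1 with labelled control and at 0.38, 0.06 and 0 TPM in H1299, with 0 in all labelled DCBLD2 libraries. In reads that was 7332 against 7 over the 3 libraries of each group, a ratio of 1022 per read (95% exact interval 496 to 2543, for counting error only). SNRPN shares its transcript with SNURF, so its count may hold reads of both.

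HNRNPA1, which binds exonic silencers, was the most abundant member in H1299 at 2287, 2178 and 2353 TPM, and ranked 3 in THP-1 at 448, 504 and 419 TPM (-2.05 ± 0.06, adjusted p = 2.27e-09). HNRNPC, which binds uridine tracts, ranked 1 in THP-1 at 665, 654 and 691 TPM and 5 in H1299 at 695, 776 and 811 (0.04 ± 0.08, adjusted p = 0.615). None of the 22 hnRNP genes tested was higher in THP-1 and 20 were lower, HNRNPUL1 by 1.77 ± 0.07 and HNRNPM by 1.70 ± 0.08 on the log2 scale. The members higher in THP-1 included 5 of 13 PRPF genes, among them PRPF18, a second-step factor, at 21.2 ± 0.75 TPM against 8.19 ± 1.91 (SD, n = 3; log2 fold change 1.61 ± 0.14). PRPF40B, a U1-associated factor, was the furthest below H1299 at 0.40 to 0.56 TPM against 8.96 to 9.68 (-3.80 ± 0.17). The 4 genes HNRNPCL1 to HNRNPCL4 had no reads in any library and were not tested.

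**Figure D1:**
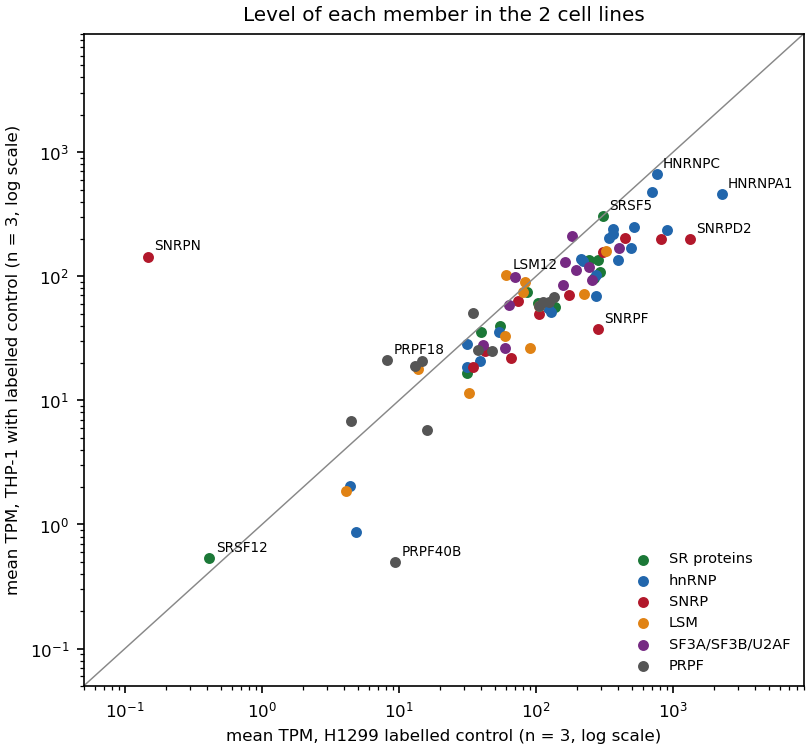
Mean TPM of each member in labelled control H1299 (x axis) and in THP-1 with labelled control (y axis), both on log scales, n = 3 each, coloured by class, with the line of equal levels. Most points lie below the line, SNRPN lies far above it at 144 TPM against 0.15, and PRPF40B far below it at 0.49 against 9.34.

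In H1299, between the labelled groups, 13 of 80 members tested (16.2%) were called, 6 higher and 7 lower. Of these, 7 are SR proteins, 5 lower and 2 higher, and none is an Sm or LSm gene. Over all genes 20.9% were called, 10.3% higher and 10.6% lower, so the members' share lay below that of the table as a whole. The median member stood at -0.05, and all genes at 0.00. In 27 members (33.8%) the 3 TPM values of one group did not overlap those of the other, against 37.5% of all genes. Fewer cells of one kind and less RNA per cell cannot be told apart in bulk libraries. Limma on log2(TPM + 1) gave 3 higher and 6 lower in place of 6 and 7.

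No Sm gene of 11 and no LSm gene of 11 was called in H1299. At an unadjusted p under 0.05, edgeR gave 1 of the 11 and 2 of the 11, against 4759 of all 12773 genes tested. The log2 fold changes ran from -0.32 to 0.27 and from -0.32 to 0.26. SNRPB, the Sm B protein, held 718, 901 and 850 TPM in labelled control and 800, 731 and 785 in labelled DCBLD2. LSM4 held 285, 356 and 332 against 338, 298 and 330. For both genes the groups overlap.

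Of the U2-bound factors SF3B1 (chr2:197389784-197435091, minus strand), whose HEAT repeats clasp the branch point, was higher at 117, 129 and 85.9 TPM against 93.0, 42.1 and 75.6 (0.70 ± 0.22, adjusted p = 0.0459). Its groups overlap, since labelled control replicate 2 lies far below the other 2 controls. SF3B4, its partner of the same complex, was lower at 118, 104 and 106 TPM against 147, 164 and 176 (-0.57 ± 0.11, adjusted p = 0.00786), with no overlap. Among the PRPF genes PRPF38B, of the precatalytic spliceosome, was higher, at 21.1, 23.7 and 17.5 TPM against 15.04, 11.6 and 17.8, which overlap, with a log2 fold change of 0.51 ± 0.16 (adjusted p = 0.0425).

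Among the SR proteins 7 of 12 were called, 5 lower and 2 higher, and the summed TPM of the class fell from 1803 to 1896 in labelled control to 1326 to 1761 in labelled DCBLD2, groups that do not overlap. SRSF6 (chr20:43457928-43464247, plus strand), an exon enhancer-binding protein, read 105, 94.9 and 109 TPM in labelled control and 71.1, 54.9 and 45.5 in labelled DCBLD2 (-0.73 ± 0.12, adjusted p = 0.00452). SRSF2, also known as SC35, read 274, 291 and 315 against 247, 176 and 165 (-0.59 ± 0.14, adjusted p = 0.0203). SRSF8, a close copy of SRSF2 without its introns, read 36.3, 26.1 and 31.5 against 20.9, 22.4 and 21.3 (-0.57 ± 0.11, adjusted p = 0.0105). In each of these 3 genes all labelled DCBLD2 libraries lie below all controls, with replicate 1 nearest to them in SRSF6 and SRSF2. SRSF3, the smallest SR protein, and SRSF1, the founding one, were lower by 0.51 ± 0.11 and 0.42 ± 0.13 on the log2 scale (adjusted p of 0.0158 and 0.0390). The other way went SRSF4 (chr1:29147743-29181987, minus strand), an SR protein with a long RS domain, at 125, 129 and 111 TPM against 80.7, 87.8 and 89.1 (0.52 ± 0.09, adjusted p = 0.00707), and SRSF11, at 70.5, 67.9 and 51.1 against 46.4, 32.3 and 41.3 (0.63 ± 0.15, adjusted p = 0.0182). Neither gene's groups overlap.

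Of 22 hnRNP genes tested in H1299, 1 fell and 1 rose. HNRNPM (chr19:8444767-8489114, plus strand), which binds GU-rich sites and is known from exon choice in epithelial-mesenchymal transition, held 250, 285 and 294 TPM in labelled control and 205, 137 and 145 in labelled DCBLD2 (-0.76 ± 0.14, adjusted p = 0.00822). HNRNPH3, of the G-tract binders, held 119, 110 and 138 against 194, 158 and 141 (0.41 ± 0.12, adjusted p = 0.0351). At 1.5-fold or more the called members were 3 higher (SF3B1 and SRSF11 among them) and 3 lower (HNRNPM, SRSF6 and SRSF2), which is 3.75% each way against 6.15% and 5.7% of all genes. These calls lean on single libraries: without labelled DCBLD2 replicate 2, 10 of the 13 lost the call, and SRSF4, SRSF6 and HNRNPM alone kept it whichever library was left out. Without labelled DCBLD2 replicate 1 or labelled control replicate 3, 5 were lost, while without labelled control replicate 1 the lower calls numbered 11.

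**Figure D2:**
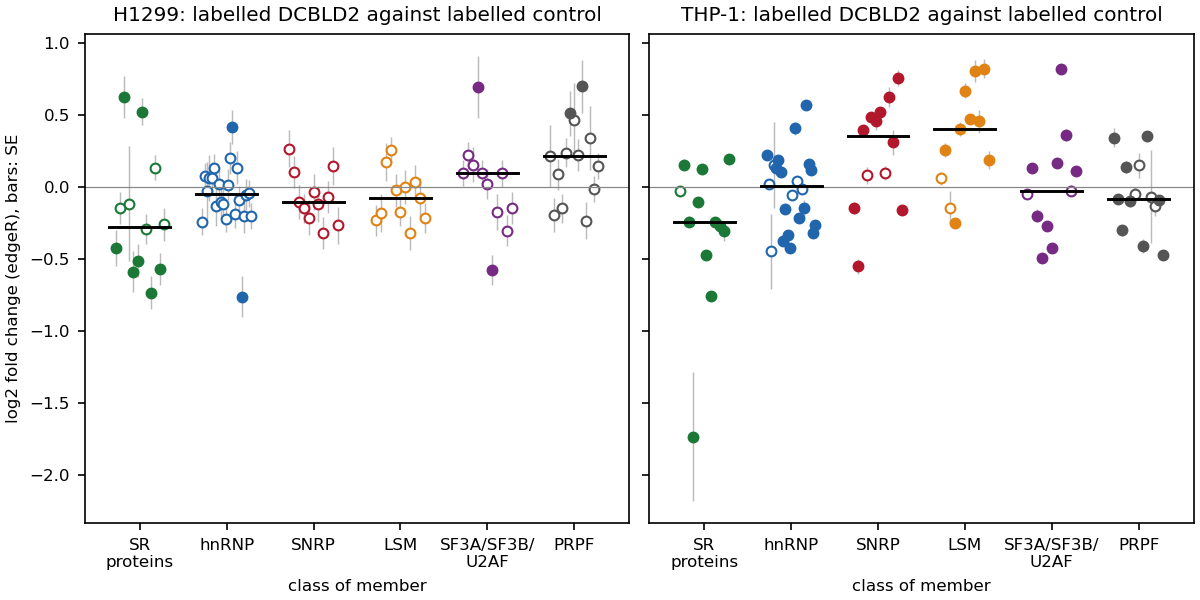
Log2 fold change of each member tested, labelled DCBLD2 against labelled control, by class, in H1299 (left, 80 members) and THP-1 (right, 81 members). Filled points were called at an adjusted p under 0.05 (edgeR), grey bars are SE, black lines are class medians: in THP-1 the SNRP and LSM medians are 0.35 and 0.40 and the SR median is -0.24, and SRSF12 at -1.73 rests on 51 reads against 17.

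In THP-1 most Sm and LSm ring genes rose, in counts and in TPM, with SNRPD1, SNRPD3 and LSM8 as exceptions. Most SR proteins and the large subunits SF3B1, SF3B3 and PRPF8 fell, and hnRNP genes went both ways in equal number. Of 81 members tested, 64 (79%) were called, 34 higher and 30 lower. Over all genes 68.1% were called, 34.5% higher and 33.6% lower. The changes were small: 6 members rose and 2 fell by 1.5-fold or more (7.41% and 2.47%), against 11.3% and 9.92% of all genes. The median member stood at 0.02 and all genes at 0.00. In 58 members (71.6%) the groups of TPM values did not overlap, against 64.9% of all genes. When the larger common spread of H1299 was put in place of that of THP-1, 15 higher and 9 lower calls were left. That fit gave all genes alike this common value. It also used likelihood ratios instead of the quasi-likelihood F test, so calls kept or lost do not reflect the spread alone. The share of all genes called under it is not given. These counts, and the calls kept by class below, therefore have no background to stand beside.

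Together the 85 genes held 8151 to 8217 TPM with labelled control and 8151 to 8233 TPM with labelled DCBLD2, so their total was level while its make-up moved. The SNRP genes went from 1180 to 1204 up to 1475 to 1523 TPM, the LSM genes from 637 to 660 up to 800 to 806, and the SF3A, SF3B and U2AF genes from 1124 to 1146 up to 1210 to 1227. In this last class the sum leans on SF3B5, whose mean went from 170 to 293 TPM. The class median log2 fold change was -0.02, with 5 genes called higher and 4 lower. The hnRNP genes went from 3669 to 3751 down to 3358 to 3382 TPM, the SR proteins from 1050 to 1076 down to 895 to 927, and the PRPF genes from 420 to 426 down to 376 to 394. None of these 6 pairs of ranges overlaps. Other measures moved with the same groups. The share of reads from mitochondrially encoded genes was 3.48% to 3.51% with labelled control and 2.46% to 2.58% with labelled DCBLD2, that from ribosomal protein genes 3.99% to 4.02% against 5.52% to 5.82%, 14 of 15 cell cycle genes were called higher (sum of 242 to 255 against 327 to 333 TPM), and 10 of 16 myeloid markers were called higher and 5 lower (sum of 9657 to 9713 against 11021 to 11205 TPM). Of 12 carcinoma markers tested 3 were higher and 6 lower, with a sum of 431 to 449 against 396 to 412 TPM. Their part in the splicing genes' changes was not tested.

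Of the 7 Sm ring genes 6 were called higher on counts, and 5 of them (SNRPB, SNRPD2, SNRPE, SNRPF and SNRPG) were also higher in TPM. The median log2 fold change on counts over the 7 was 0.46, which is the value of SNRPD1, the gene not higher in TPM among the 6. The median with limma on log2(TPM + 1) was 0.36. SNRPG (chr2:70281362-70293771, minus strand) stood at 155, 159 and 153 TPM with labelled control and at 288, 236 and 248 with labelled DCBLD2 (0.76 ± 0.06, adjusted p = 7.47e-12). SNRPE stood at 46.9, 48.2 and 54.7 against 82.5, 67.9 and 70.5 (0.63 ± 0.07, adjusted p = 7.18e-09), and SNRPD2 at 196, 201 and 201 against 283, 279 and 273 (0.52 ± 0.04, adjusted p = 1.30e-12). All 3 are separate between groups, and replicate 1 with labelled DCBLD2 is the highest in each. SNRPB and SNRPF rose by 0.39 ± 0.03 and 0.31 ± 0.09, and SNRPD3, at 0.10 ± 0.05 (adjusted p = 0.0902), did not pass. SNRPD1 was called higher on its counts (0.46 ± 0.06), yet its TPM went from 20.5, 21.1 and 24.4 to 18.9, 18.3 and 20.9. Its ratio of count to TPM, scaled to the median gene of each library, was 0.60 higher on the log2 scale with labelled DCBLD2, without overlap, and this ratio follows the transcript length used in the authors' estimate, so no direction is given for it. Several Sm genes, SNRPG, SNRPE and SNRPF among them, have processed pseudogenes with which reads may be shared.

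Proteins particular to one snRNP went both ways. SNRPC, the U1 C protein that touches the 5' splice site, rose from 206, 207 and 200 to 280, 290 and 279 TPM (0.49 ± 0.03, adjusted p = 1.03e-13). SNRPA1 of U2 fell from 64.4, 64.1 and 60.8 to 40.1, 42.0 and 45.6 TPM (-0.55 ± 0.05, adjusted p = 1.24e-09). Neither pair of groups overlaps. SNRPA of U1 was lower by 0.14 ± 0.04, and SNRPB2 of U2 was not called (0.08 ± 0.06, adjusted p = 0.239). SNRPN is not particular to one snRNP, since SmN can take the place of SNRPB in the ring. It was not counted among the Sm ring genes above, and was lower by 0.16 ± 0.03 (144, 146 and 141 TPM to 122, 129 and 125).

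All 7 genes of the LSm2 to LSm8 ring were called higher, with a median log2 fold change of 0.47. LSM7 (chr19:2321517-2328620, minus strand) stood at 73.5, 73.4 and 68.4 TPM with labelled control and 134, 124 and 111 with labelled DCBLD2 (0.82 ± 0.07, adjusted p = 2.96e-11). LSM5 stood at 28.1, 25.4 and 25.7 against 43.8, 42.5 and 43.0 (0.81 ± 0.07, adjusted p = 3.82e-10), LSM3 at 11.3, 11.4 and 11.7 against 18.2, 17.6 and 17.4 (0.67 ± 0.05, adjusted p = 3.01e-11), and LSM4 at 165, 154 and 165 against 216, 220 and 230 (0.47 ± 0.03, adjusted p = 6.05e-13). These 4 genes have no overlap between groups. LSM8, which sets the U6 ring apart from the cytoplasmic one, was called at 0.19 ± 0.06 (adjusted p = 0.0108), but its TPM overlaps, at 9.16, 13.5 and 30.9 against 12.025, 14.7 and 16.0, and its means go the other way, so its direction rests on the counts. LSM1, which takes the place of LSM8 in the ring that drives mRNA decay, did not pass (0.06 ± 0.04, adjusted p = 0.227), nor did LSM11 of the U7 particle for histone mRNA (-0.14 ± 0.11, adjusted p = 0.275), while its partner LSM10 was higher by 0.26 ± 0.05. LSM12, a relative outside the rings, was lower by 0.25 ± 0.03. With limma on log2(TPM + 1), 5 of the Sm ring genes and 6 of the LSm ring genes were called higher, SNRPD1 and LSM8 not among them. With the spread of H1299, SNRPB, SNRPD2, SNRPE, SNRPG and LSM2 to LSM7 were still called, as was SNRPD1 on its counts, and SNRPF and LSM8 were lost (adjusted p of 0.152 and 0.409).

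**Figure D3:**
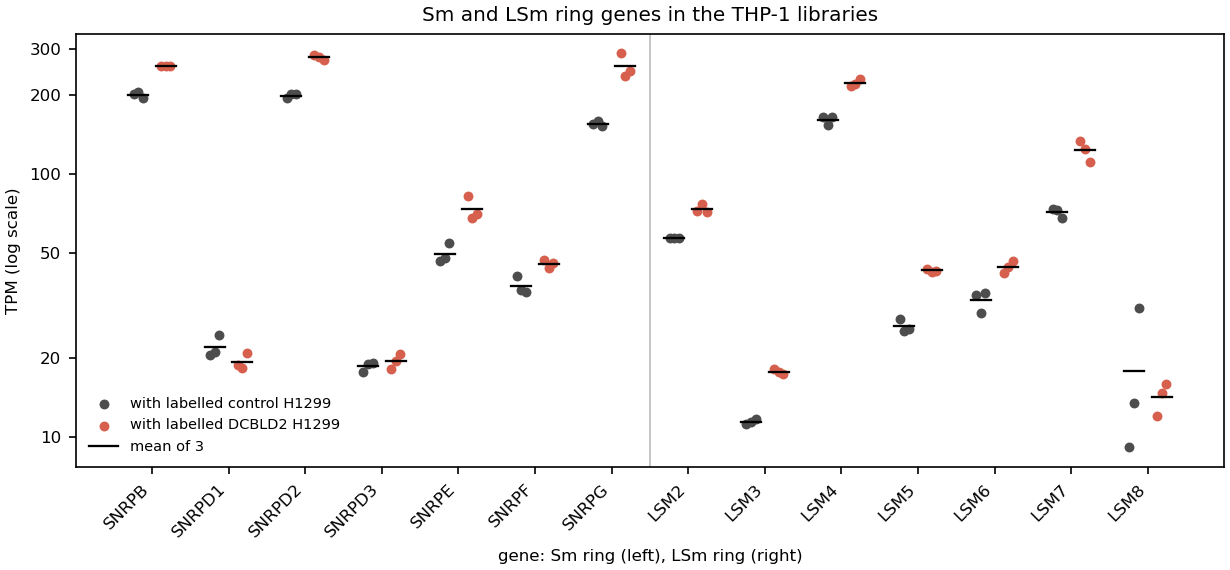
TPM (log scale) of the 7 Sm ring genes and the 7 LSm ring genes in the 6 THP-1 libraries, as points with the group mean. Labelled DCBLD2 lies above labelled control without overlap in 11 of the genes, and SNRPD1, SNRPD3 and LSM8 are the exceptions.

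The 11 genes that seat U2 at the branch point divided by subunit. SF3B5 (chr6:144094881-144095573, minus strand), one of the small SF3B subunits, rose from 174, 169 and 168 to 301, 291 and 288 TPM (0.82 ± 0.03, adjusted p = 2.44e-17). SF3B6, the p14 protein that lies near the branch-point adenosine and whose promoter is printed above, rose from 116, 119 and 120 to 153, 141 and 151 TPM (0.36 ± 0.04, adjusted p = 6.55e-08). The large subunits SF3B1 and SF3B3 fell: SF3B1 from 96.1, 97.0 and 101 to 68.2, 63.1 and 65.8 TPM (-0.49 ± 0.02, adjusted p = 2.92e-15), and SF3B3 from 28.2, 26.9 and 29.2 to 22.3, 19.4 and 20.005 TPM (-0.43 ± 0.03, adjusted p = 1.23e-12). In all of these the groups are separate. SF3B2 and SF3A3 were lower by 0.27 ± 0.02 and 0.20 ± 0.05, and SF3B4, SF3A2 and U2AF2 higher by 0.17, 0.13 and 0.11. U2AF1, which reads the AG of the 3' splice site, did not pass (-0.02 ± 0.04, adjusted p = 0.604), and its reads may be split with a near-identical copy. With the spread of H1299 only SF3B5, SF3B1 and SF3B3 of this class were still called, and SF3B6 was lost (adjusted p = 0.0650).

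PRPF8 (chr17:1650629-1684882, minus strand), the U5 scaffold of the catalytic centre, fell from 61.7, 61.1 and 63.5 to 43.1, 44.8 and 43.4 TPM (-0.47 ± 0.02, adjusted p = 1.87e-15). PRPF4 of U4/U6 fell from 24.8, 25.7 and 25.1 to 18.1, 17.9 and 19.8 TPM (-0.41 ± 0.05, adjusted p = 5.46e-08), and its partner PRPF3 by 0.30 ± 0.04. PRPF18 rose by 0.34 ± 0.07. In all, 6 PRPF genes fell, 3 rose and 4 of the 13 were not called, and the falls of PRPF19, PRPF6 and PRPF38A were of 0.08, 0.09 and 0.10. With the spread of H1299 only PRPF8 and PRPF4 were still called.

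Of the 12 SR proteins 8 fell, 3 rose and 1, SRSF1, did not pass (-0.03 ± 0.03, adjusted p = 0.397). SRSF5 (chr14:69726900-69772005, plus strand), the SR gene with the highest TPM in both THP-1 groups, fell from 312, 295 and 311 to 196, 176 and 181 TPM (-0.76 ± 0.03, adjusted p = 5.18e-18). SRSF4 fell from 73.1, 75.8 and 74.6 to 49.7, 53.6 and 55.0 TPM (-0.47 ± 0.03, adjusted p = 4.95e-12), and SRSF6 from 62.4, 58.2 and 60.7 to 46.3, 50.4 and 54.0 TPM (-0.24 ± 0.03, adjusted p = 5.10e-07). These 3 are separate between the groups. SRSF7, which also serves mRNA export, was lower by 0.27 ± 0.05, and SRSF9, SRSF10 and SRSF3 were higher by 0.20, 0.16 and 0.13. SRSF12 has the largest fitted change of all members (-1.73 ± 0.45) but held 51 and 17 reads in the 3 libraries of each group, under 1 TPM. With the spread of H1299 only SRSF4, SRSF5 and SRSF12 were still called lower, and no SR protein higher. Since SRSF12 kept its call on so few reads, a kept call does not mark a well-measured gene.

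Among 22 hnRNP genes 8 rose, 8 fell and 6 were not called. HNRNPM rose from 69.7, 67.0 and 71.2 to 97.8, 99.4 and 102 TPM (0.57 ± 0.03, adjusted p = 4.28e-15). HNRNPH2, a G-tract binder, rose from 35.4, 37.7 and 34.1 to 47.4, 44.5 and 47.1 TPM (0.41 ± 0.04, adjusted p = 8.19e-09). HNRNPF, of the same G-tract family, fell from 212, 230 and 220 to 160, 167 and 164 TPM (-0.42 ± 0.02, adjusted p = 1.06e-14), and HNRNPC from 665, 654 and 691 to 493, 493 and 498 TPM (-0.37 ± 0.02, adjusted p = 4.68e-15). None of these 4 overlaps between groups. HNRNPK was lower by 0.22 ± 0.02 and HNRNPUL1 by 0.32 ± 0.02, while HNRNPA2B1 and HNRNPU were higher by 0.13 and 0.12. With the spread of H1299 only HNRNPM and HNRNPH2 were still called higher and HNRNPF lower, and HNRNPC, HNRNPUL1 and HNRNPK were lost (adjusted p of 0.0528, 0.107 and 0.295). HNRNPA1 did not pass (0.02 ± 0.02, adjusted p = 0.335), and as it has many processed copies its count, and those of HNRNPA1L2 and HNRNPA1L3, are uncertain.

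Short transcripts tended to be higher and long ones lower in THP-1. With the genes tested put into 5 equal groups by length, from the shortest transcripts (up to 903 nt) to the longest (from 3516 nt), the median log2 fold change of all genes was 0.11, 0.07, -0.02, -0.05 and -0.07. For the members it was 0.31, 0.12, 0.11, -0.23 and -0.14, over 21, 18, 14, 16 and 12 genes. The median length was 723 nt for the Sm ring genes, 986 nt for the LSm ring genes and 692 nt for 86 ribosomal protein genes, of which 71 of 83 tested were called higher (median 0.50), and 2999.5 nt for the PRPF genes. In H1299 the medians of all genes were -0.04, -0.04, 0.00, 0.02 and 0.13, and those of the members, over 21, 18, 13, 17 and 11 genes, were -0.07, -0.12, 0.13, -0.04 and -0.11, which do not follow them. The part of length in the ring genes' changes was not tested further. The groups by length were looked at after the values were seen.

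**Figure D4:**
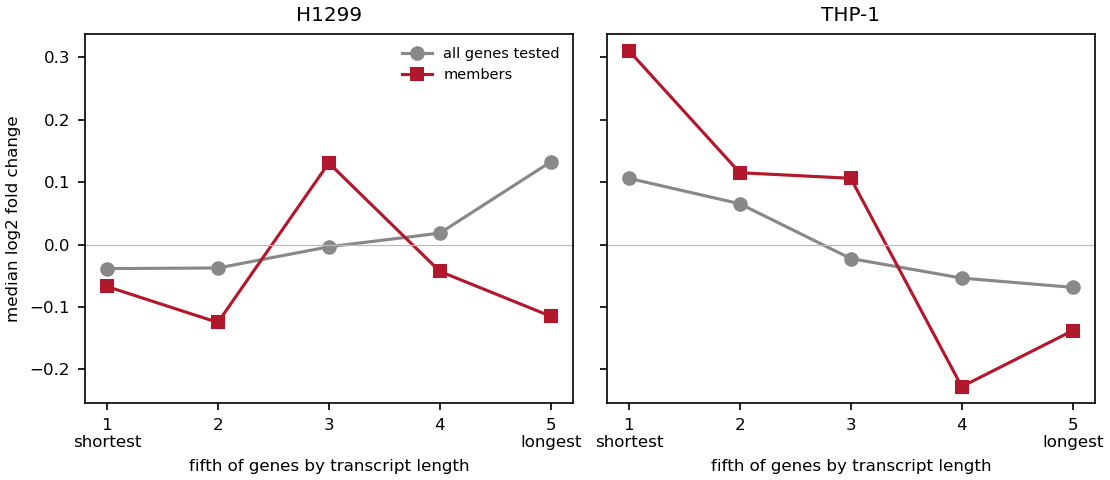
Median log2 fold change (labelled DCBLD2 against labelled control) in 5 equal groups of genes ordered by transcript length, for all genes tested (grey) and for the members (red). In THP-1 both lines run from above 0 in the shortest group (0.11 and 0.31) to below 0 in the longest (-0.07 and -0.14), and in H1299 all genes run from -0.04 to 0.13.

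The 2 cell lines differed in how the members moved. A contrast of both responses over the 12 libraries (THP-1 difference minus H1299 difference) was called for 45 of 81 members (55.6%), 25 higher and 20 lower, against 38.7% of all genes, 19.3% higher and 19.5% lower. This fit gives both lines the same spread per gene. Its common coefficient was 9.48%, against 13.3% in H1299 and 1.96% in THP-1 alone, so it describes neither line by itself. What this does to the p-values was not tested. At 1.5-fold or more 11 were higher and 7 lower (13.6% and 8.64%), against 12.9% and 11.9% of all genes. Ring genes make up 13 of the 25: 6 of the 7 Sm genes and all 7 LSm genes had the higher response in THP-1 on counts, with medians of 0.49 and 0.47. These include SNRPD1 and LSM8, whose TPM goes the other way in THP-1, and limma on log2(TPM + 1) called 4 and 6. Of the SR proteins 5 responded higher and 5 lower. The PRPF genes gave 5 lower responses and no higher one.

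Among the members, 6 were called in both lines in opposite directions. HNRNPM, SF3B4 and SRSF3 were lower in labelled DCBLD2 H1299 and higher in THP-1 exposed to it. SF3B1, SRSF11 and SRSF4 were higher in H1299 and lower in THP-1. The contrast was 1.32 ± 0.16 for HNRNPM (adjusted p = 3.27e-05), -1.21 ± 0.24 for SF3B1 (adjusted p = 0.00144) and -1.01 ± 0.10 for SRSF4 (adjusted p = 7.11e-06). It was -0.88 ± 0.16 for SRSF11, 0.74 ± 0.11 for SF3B4 and 0.63 ± 0.12 for SRSF3 (adjusted p of 0.000757, 0.000160 and 0.00114). SRSF2, SRSF6 and SRSF8 were called lower in both lines. With 1 library left out, the H1299 calls of SF3B1, SRSF11, SF3B4 and SRSF3 were lost in 4, 2, 1 and 1 of 6 fits. The THP-1 calls of SF3B4, SRSF3 and SRSF11 are lost with the spread of H1299. Of the 6 members, only HNRNPM and SRSF4 kept their calls in both of these checks.

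**Figure D5:**
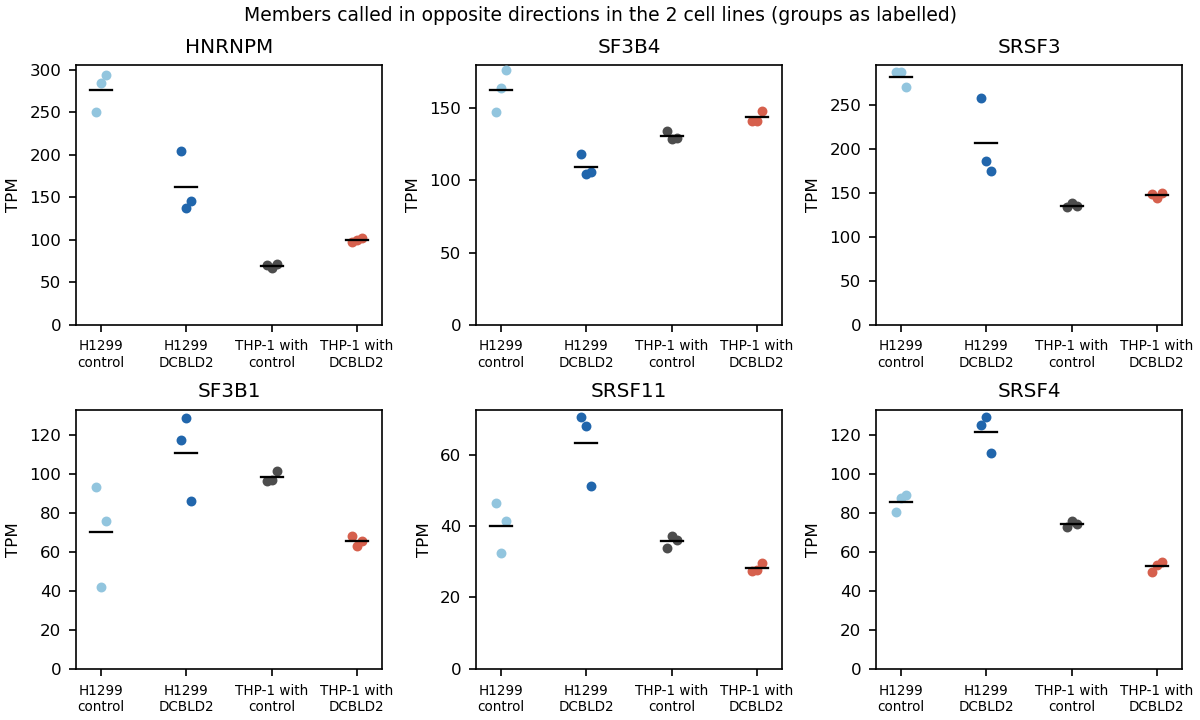
TPM of the 6 members called in opposite directions in H1299 and THP-1, in all 12 libraries, with the mean of each group of 3 as a line. In the top panels labelled DCBLD2 lies below labelled control in H1299 and above it in THP-1, and in the bottom panels the order is turned, with an overlap for SF3B1 in H1299.

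Other genes of the pathway were taken from lists chosen by function, and their counts stand beside 10.3% higher and 10.6% lower of all genes in H1299 and 34.5% and 33.6% in THP-1. Of 47 further snRNP and spliceosome proteins 6 were higher and 2 lower in H1299 (median 0.09), and 15 higher and 21 lower in THP-1 (median -0.06). The U5 helicase SNRNP200, a partner of PRPF8, fell in THP-1 from 71.3 ± 1.31 to 47.5 ± 0.94 TPM (SD, n = 3, log2 fold change -0.55 ± 0.02, adjusted p = 2.77e-17), and the U2AF-related PUF60 rose from 149 ± 5.28 to 183 ± 5.60 TPM. CWC27, a cyclophilin of the activated spliceosome, was higher in both lines, by 0.74 ± 0.14 in H1299 and by 0.97 ± 0.08 in THP-1. Of the other splicing regulators 6 of 32 were higher and 2 lower in H1299, where SRRM1, an SR-related coactivator, rose by 0.50 ± 0.10. In THP-1 6 of 30 were higher and 15 lower, with SRRM2, of the nuclear speckle, lower by 0.68 ± 0.02, CELF1 lower by 0.64 ± 0.02 and MBNL1 higher by 0.59 ± 0.03. Of the 7 kinases that phosphorylate SR proteins none was called in H1299 by edgeR (median 0.28). At an unadjusted p under 0.05 edgeR gave 3 of the 7 there, against 4759 of all 12773 genes tested. In THP-1 6 were lower and none higher (median -0.31), CLK1 by 0.52 ± 0.05, CLK2 by 0.41 ± 0.05 and CLK3 by 0.38 ± 0.04. Of 17 genes that assemble Sm rings, 2 were higher (GEMIN2 and GEMIN5) and 1 lower (SNUPN) in H1299, and 4 were higher and 6 lower in THP-1 (median -0.03), with the U snRNA export adaptor PHAX higher by 0.43 ± 0.06 and the Sm methyltransferase PRMT5 lower by 0.14 ± 0.03.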

How the data were processed

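RNA-seq libraries, 12 in all, of 2 cell lines were analysed. Per the labels' protocols, RNA was taken with Trizol and mRNA libraries were made with a NEBNext Ultra kit. Tools named, per the submitters' processing notes, are RSEM, HISAT2, StringTie 1.3.1, Bowtie2 2.2.8 and fastp 0.18.0, on hg38. The annotation release is not given in the sources used here, nor is strand handling, so reads of overlapping genes may be shared. The authors deposited estimated counts per gene, not normalized, and TPM values. The members, lists and tests were chosen with earlier results of these data known.

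After rounding to whole numbers, edgeR 4.0.16 in R 4.3.3 was run on the estimated counts (quasi-likelihood F test, TMM scaling, filterByExpr minimum of 10), per cell line on 6 libraries, on the 6 labelled control libraries between lines, and on all 12 for the contrast of responses. Benjamini-Hochberg adjustment ran over all genes tested, and an adjusted p under 0.05 was called. Per class and comparison, up to 4 called members with the largest change, no overlap in TPM and at least 5 TPM are named, with others fixed by level or as pairs within a class. Those called in both lines, lists of calls kept or lost, and the printed promoters were named after their values were seen. Some genes under this rule are not reported here. Log2 fold changes are given ± SE. Alternatives were a replicate block, each library left out, DESeq2 1.42.0, its size factors, other count filters, limma 3.58.1 on log2(TPM + 1) and log2(TPM + 0.1), 1 fit of all 12, the H1299 spread for THP-1, voom weights and a 2-fold threshold. The fit with the H1299 spread used likelihood ratios instead of the quasi-likelihood F test. The fits were also run on counts simulated from the same kind of model with the fitted spread. Such a run cannot test whether that model suits these libraries, and its outcome is not given here. Gene positions and transcript lengths (median of protein-coding transcripts) come from GENCODE 29, and promoter windows from RefSeq (GRCh38.p14). The listed starts of the 4 printed promoters lie 1 to 117 bases from the nearest GENCODE start.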

Additional observations from a re-analysis of the deposited data

Results flagged for a closer look

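The results below were singled out because the response to the labelled DCBLD2 condition differed between the 2 cell lines by a test of the difference itself, the contrast of both responses in edgeR over 12 libraries. It was positive for 25 members and negative for 20 of 81. Each value is the THP-1 log2 fold change minus that of H1299.

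Values were positive for HNRNPM (1.32), LSM5 (1.12), SNRPG (1.01), SF3B5 (0.98), LSM7 (0.88), LSM3 (0.83), SF3B4 (0.74), SNRPC (0.69), SNRPE (0.68), SRSF3 (0.63) and HNRNPA0 (0.45), which is 1 SR protein, 2 hnRNP genes and otherwise snRNP proteins. They were negative for SF3B1 (-1.21), SRSF4 (-1.01), SRSF11 (-0.88), SNRPA1 (-0.66), PRPF4 (-0.64), PRPF8 (-0.63), PRPF38B (-0.57), LSM12 (-0.52), SRSF5 (-0.48), SF3B3 (-0.46), HNRNPC (-0.40), PRPF3 (-0.40) and HNRNPH3 (-0.39). The call of HNRNPH3 was lost in 8 of 12 fits that left out 1 library, and that of PRPF38B without H1299 labelled DCBLD2 replicate 2 (adjusted p = 0.0633). That of PRPF3 was lost without H1299 labelled DCBLD2 replicate 1 or replicate 2 (adjusted p of up to 0.0667). Of all these genes, only HNRNPM, SF3B4, SRSF3, SF3B1, SRSF4, SRSF11, PRPF38B and HNRNPH3 were also called in H1299 by itself.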

How the results depend on the processing

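Counts of called members kept within 1.5 times of the given ones under all alternatives but these. In H1299, limma on log2(TPM + 1) and on log2(TPM + 0.1) gave 3 higher each in place of 6, and 1 fit of all 12 libraries gave 16 lower in place of 7. Leaving out 1 library gave 1 to 5 higher and 2 to 11 lower, and at 1.5-fold 0 to 3 higher and 2 to 6 lower in place of 3 and 3. In THP-1 the fit of all 12 libraries gave 17 higher in place of 34, the spread of H1299 gave 15 higher and 9 lower in place of 34 and 30, and at 1.5-fold limma on log2(TPM + 1) gave 1 lower in place of 2. At 2-fold there were 0 higher and 0 lower in H1299 and 0 higher and 1 lower in THP-1. Lower responses in the contrast numbered 13 to 18 with 1 library left out, in place of 20, the fewest without H1299 labelled DCBLD2 replicate 1. With the replicate number as a block, the contrast gave 15 higher in place of 25, and H1299 4 higher and 6 lower; THP-1 kept its counts of 34 and 30. Same-numbered libraries did not pair (correlations of -0.28 to -0.12 in H1299 and 0.03 to 0.06 in THP-1). The uncalled H1299 log2 fold changes of LSM4 and LSM7 changed sign: LSM4 to 0.00309 with the block and to between -0.10 and 0.084 with 1 library left out, and LSM7 to between -0.18 and 0.043. HNRNPH3 lost its H1299 call in 5 of 6 such fits. The causes were not tested. Reads under 100 per group limit SRSF12, and those of HNRNPA1L2 and HNRNPA1L3 are few.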

Other observations

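Ratios within pairs of genes of the same class, as TPM over TPM in each library, give the balance between members. SNRPB to SNRPN was 1.38 to 1.41 in THP-1 with labelled control and 2.003 to 2.11 with labelled DCBLD2. SF3B1 to SF3B4 was 0.72 to 0.78 and then 0.44 to 0.48 in THP-1, and 0.26 to 0.63 and then 0.81 to 1.23 in H1299, so the order of the labelled groups is turned between the lines without overlap in either. SRSF3 to SRSF7 turned likewise, from 1.95 to 2.13 down to 1.24 to 1.53 in H1299 and from 2.38 to 2.49 up to 2.97 to 3.19 in THP-1. HNRNPC to HNRNPK went from 0.97 to 1.16 up to 1.17 to 1.36 in H1299 and from 1.38 to 1.41 down to 1.25 to 1.27 in THP-1. In H1299 the groups of this ratio almost touch, and neither gene was called there. HNRNPH1 to HNRNPH2 went from 3.33 to 4.27 down to 2.65 to 2.95 in THP-1 and overlapped in H1299 (3.40 to 4.55 against 3.06 to 4.02). HNRNPA1 to HNRNPA2B1 was 6.12 to 7.04 in H1299 and 1.99 to 2.57 in THP-1 among the labelled controls. These ratios were not tested.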
